A study of Mus musculus with 12 samples.

Results

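The genes described here encode the receptors for glutamate and GABA, the main excitatory and inhibitory transmitters of the brain. They were chosen by symbol: the AMPA (Gria), NMDA (Grin), kainate (Grik) and delta (Grid) families, the metabotropic glutamate receptors (Grm), the GABA-A subunits including the rho subunits (Gabr), and the GABA-B subunits Gabbr1 and Gabbr2. The rule, which uses symbols alone, took 49 of the 21878 genes listed in each table. Of these, 44 are described here, and 42 of the 44 are receptor subunits, 24 for glutamate and 18 for GABA. The other two matched by spelling: one encodes a scaffold protein, and Grin1os is a transcript on the strand opposite Grin1.

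The RNA came from hippocampus, per the series design text, while the sample labels give the tissue as brain. WT mice and mice labelled Presenilin-1/2 conditional knockout (DKO) were killed under pentobarbital anaesthesia at 9 a.m. (Day) or 9 p.m. (Night), which gave 4 groups of 3 libraries: Day WT, Day DKO, Night WT and Night DKO. The comparisons ask how hippocampal RNA differed between the genotypes and between the hours. Presenilins are the catalytic subunits of gamma-secretase, the protease that cuts the amyloid precursor protein and Notch. The sources used here do not give the Cre driver, strain, age or sex of the mice. Whether the 3 libraries of a group come from different mice is not stated, so a p-value here measures the spread between samples alone, which may be technical.

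Ionotropic glutamate receptors are tetramers: AMPA receptors carry most fast excitatory current, NMDA receptors pass calcium when glutamate and depolarization coincide, and kainate receptors tune release and excitability. GABA-A receptors are pentameric chloride channels, usually built from alpha and beta subunits with a gamma or delta subunit, and the alpha subunit sets much of their kinetics, location and drug response. Metabotropic glutamate receptors and the GABA-B receptor act through G proteins, and GABA-B works as an obligate pair in which Gabbr1 binds GABA and Gabbr2 couples to the G protein.

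Levels are given in FPKM, that is, fragments scaled to both transcript length and sequencing depth, with library sums of 151059 to 175692. Psen2, a target of the knockout, stood at 1.47 to 3.64 FPKM in the 6 WT libraries and at 0.275 to 0.594 in the 6 DKO libraries, with no overlap. All 14 markers of hippocampal subfields were detected, with sums of 170.3 to 228 FPKM per library. Of 7 markers of cerebellum or thalamus, 4 (Cbln3, Pcp2, Tcf7l2 and Gabra6) stayed under 0.5 in every library. The other 3 (Prkcd, Slc17a6 and Lhx9) reached 0.5 in 3 or more libraries, with sums over the 7 of 4.92 to 9.28. All 5 striatum markers also did so, with sums of 13.0 to 23.4. Night WT replicate 1 had almost no Y-linked RNA (Ddx3y 0.0225 FPKM, against 6.83 to 8.56 in the other libraries). Markers of neighbouring choroid plexus varied most (summed FPKM of 80.1 to 1890 in Day DKO and 1188 to 3317 in the other 3 groups).

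Of the 44 genes, 33 passed the filter on low values (3 or more libraries with an FPKM of 0.5 or higher), and all 33 are subunits. The 9 subunits that did not pass were Grin3b, Grm6, Gabra6, Gabre, Gabrp, Gabrq and the rho genes Gabrr1, Gabrr2 and Gabrr3, and none exceeded 0.274 FPKM in any library. Gabra6 is the alpha subunit of cerebellar granule cells, and Grm6 and the rho genes are best known from the retina. Grin1os, at 0 in 11 libraries, and the scaffold gene, at most at 0.256 FPKM, were not tested either.

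Because FPKM is scaled to length, levels are compared between genes here. This rests on a unit read from the values and on an annotation that the sources do not give. Summed over a class, AMPA receptor RNA stood at 125.3 to 157.8 FPKM per library (median 140.7), GABA-B at 104 to 124.8 (median 116.1), NMDA at 80.4 to 99.4 (median 84.8) and kainate at 23.2 to 28.2. The ranges of these 4 sums over the 12 libraries did not overlap, although the highest GABA-B sum was close to the lowest AMPA sum. A single gene carried much of each of them: Gabbr1 made up 74.9 to 79.4% of GABA-B, Gria1 45.4 to 52.4% of AMPA, Grik5 44.5 to 49.0% of kainate and Grin1 40.9 to 48.1% of NMDA RNA.

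**Figure D1:**
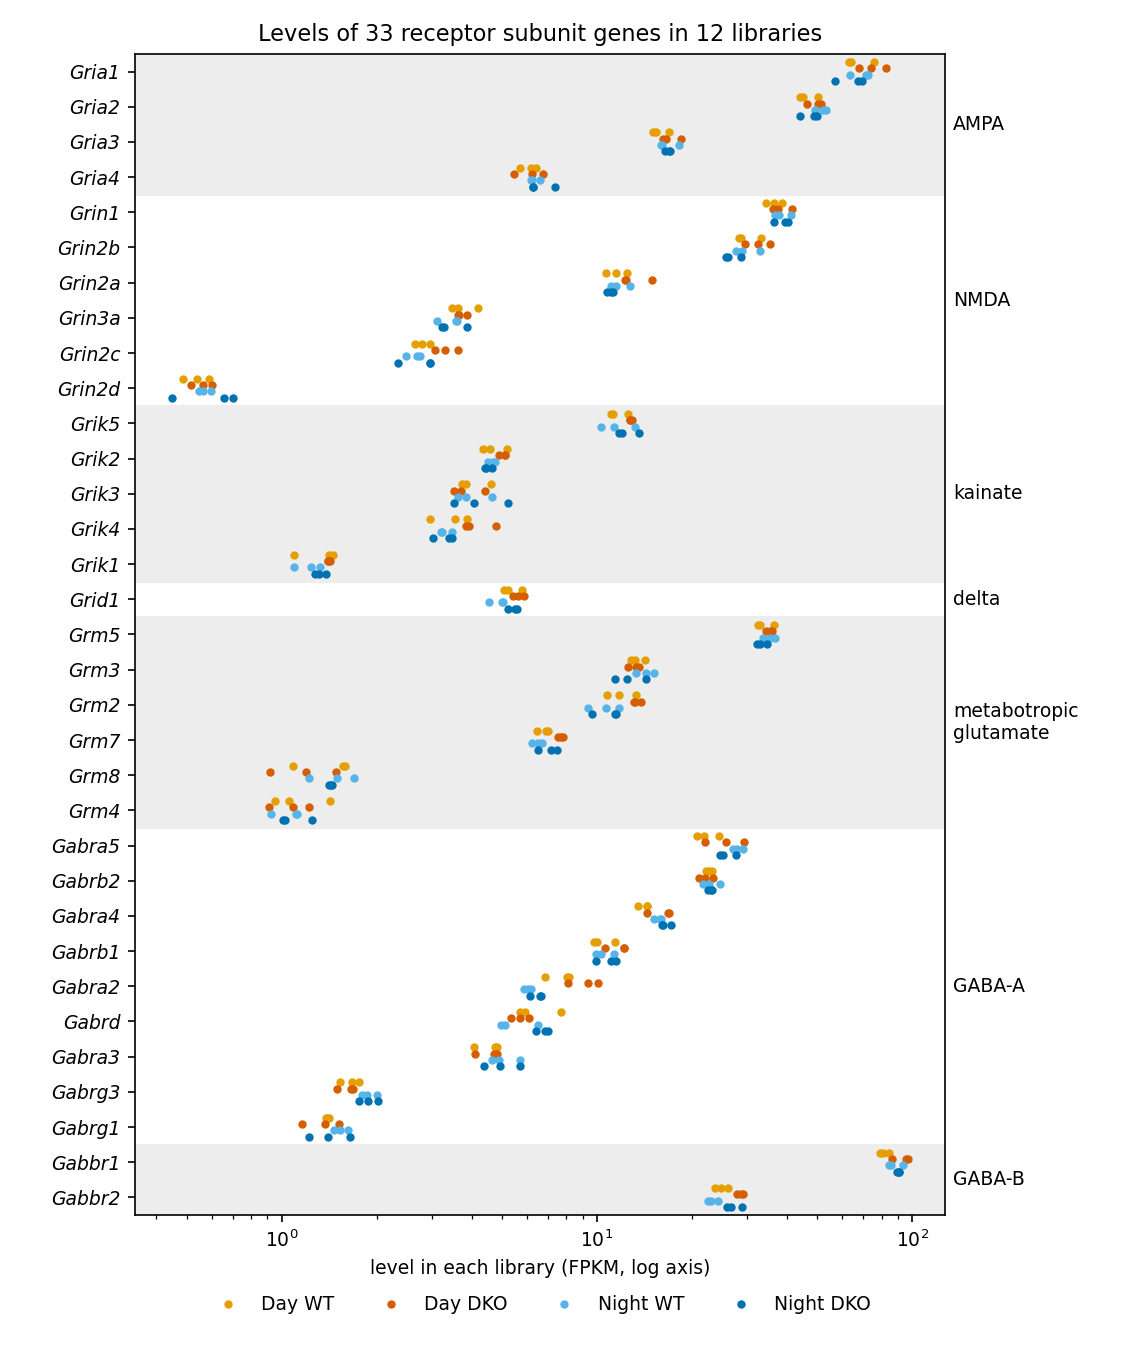
Level of each of the 33 tested receptor subunit genes in each of the 12 libraries (FPKM, log axis), grouped by class, with points coloured by group. Gabbr1 (79.2 to 97.1 FPKM) and Gria1 (56.9 to 82.7) are the most abundant genes shown and Grin2d (0.448 to 0.700) the least abundant, and the 4 groups lie close together for nearly every gene.

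Of the 33 tested receptor subunits, 2 were called in at least 1 comparison, at an adjusted p under 0.05 over all 12689 genes tested with limma. Gabra2, the GABA-A alpha2 subunit, was lower at night, and Gabbr2 was higher in DKO. Averaged over genotypes, night against day called 1 of 33 (lower), beside 6.07% of all genes (0.875% called lower). Averaged over hours, DKO against WT called 1 of 33 (higher), beside 1.88% of all genes (1% called higher). Night against day in DKO called 1 of 33 (Gabra2, lower), beside 0.299% (0.118% called lower). None of the 33 was called between genotypes by day (background 1.18%) or at night (0.0236%), between hours in WT (1.67%) or in the interaction (0%), although 8, 3, 3 and 3 of them had an unadjusted p under 0.05. The shares of members with such a p, out of 33, stand beside 17%, 9.18%, 22.3% and 8.66% of all genes. With median-of-ratios scaling these counts were 4, 3, 8 and 1, beside 15.2%, 10.2%, 15.6% and 7.41%.

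The direction of calls among all genes depended on scaling. Averaged over genotypes, 659 genes were called higher and 111 lower at night, against 209 and 285 with median-of-ratios scaling. Averaged over hours, 127 were called higher and 111 lower in DKO, against 119 and 176. By day these counts were 101 and 49 against 57 and 65, between hours in WT 192 and 20 against 20 and 32, and between hours in DKO 23 and 15 against 25 and 32. Receptor calls with that scaling were 1 lower in DKO (Gabra2), 2 lower averaged over genotypes (Gabra2 and Grm2) and 1 higher averaged over hours (Gabbr2).

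**Figure D2:**
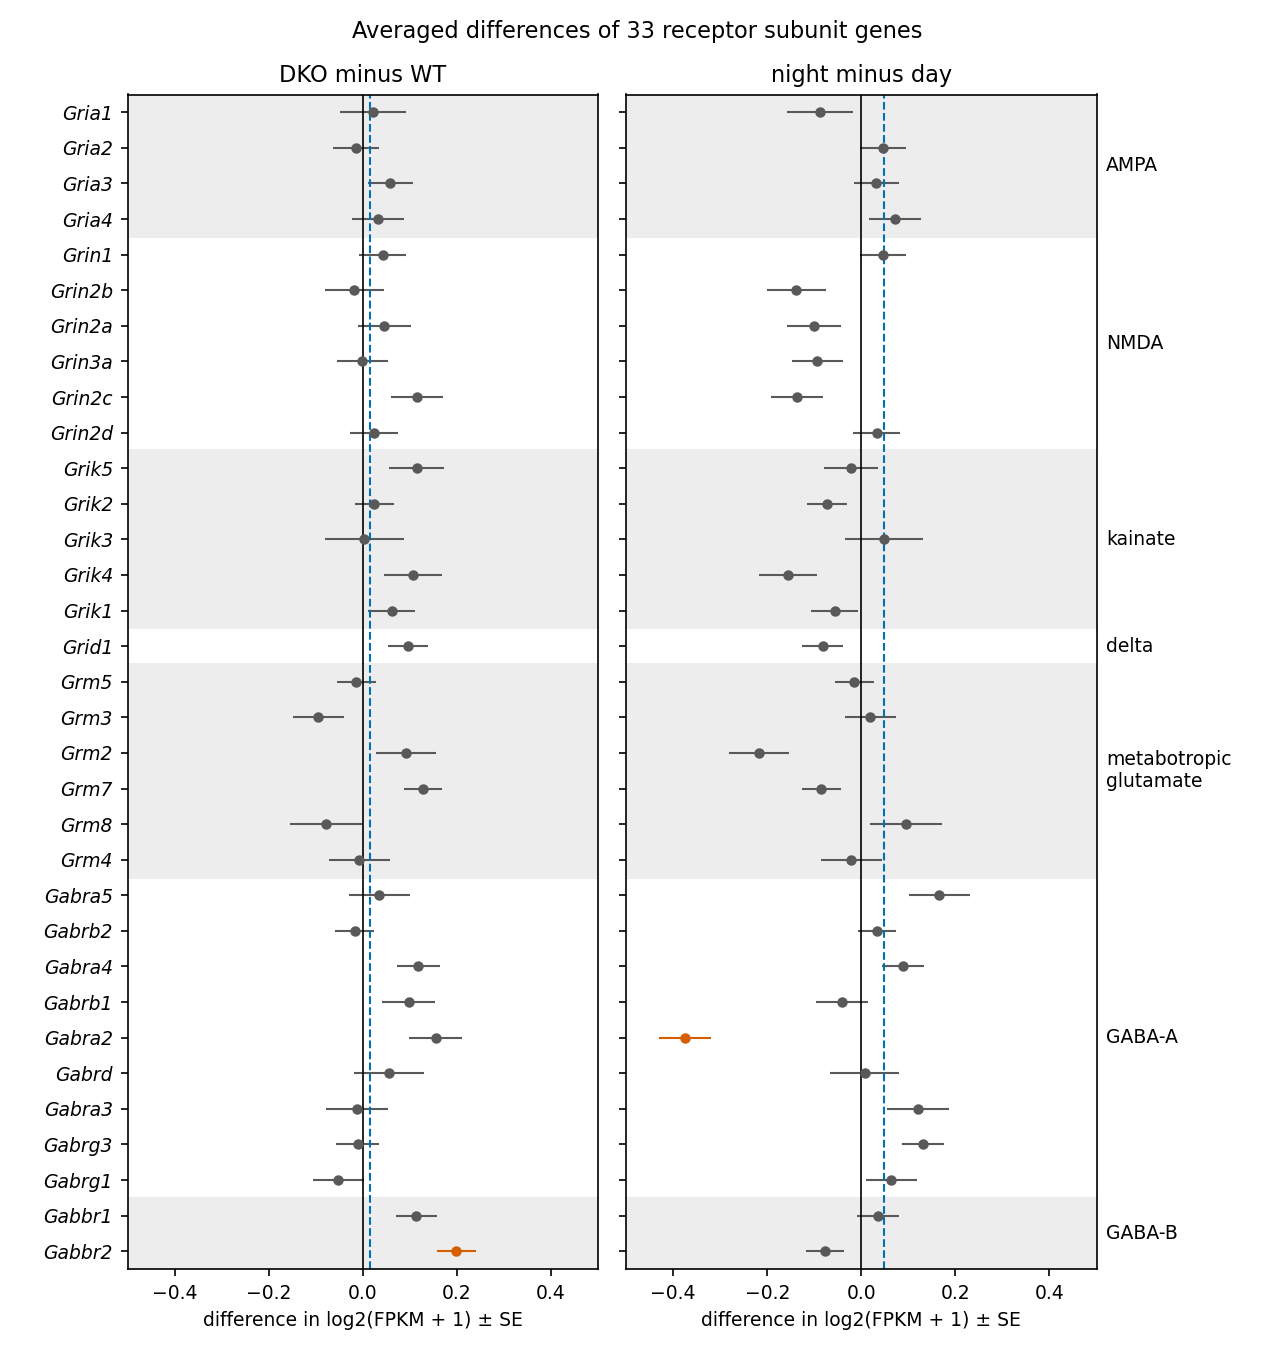
Averaged difference of each of the 33 tested receptor genes in log2(FPKM + 1), with its standard error, for DKO minus WT (left) and night minus day (right). Orange marks the called genes, the dashed line the median of all genes tested (0.01 and 0.05). Gabra2 lies farthest to the left of the night minus day panel at -0.37.

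AMPA receptor genes showed no call. Gria1 and Gria2 encode GluA1 and GluA2, the main subunits of hippocampal pyramidal cells, and edited GluA2 makes the channel impermeable to calcium. Gria1 stood at 64.0, 63.1 and 75.6 FPKM in Day WT, 67.7, 73.8 and 82.7 in Day DKO, 71.3, 72.5 and 63.5 in Night WT, and 69.4, 56.9 and 67.3 in Night DKO. Gria2 stood at 44.1, 45.1 and 50.3 in Day WT, 46.5, 50.1 and 51.2 in Day DKO, 52.0, 53.3 and 49.0 in Night WT, and 48.7, 44.1 and 49.9 in Night DKO. All 4 groups overlapped one another for both genes. The averaged night minus day difference was -0.09 for Gria1 (SE 0.0699, adjusted p = 0.452) and 0.05 for Gria2 (SE 0.0488, adjusted p = 0.570), the latter -0.011 with median-of-ratios scaling.

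The ratio of Gria1 to Gria2 within a library, which does not depend on a scaling factor shared by its genes, was lower at night in both genotypes. The 2 transcripts differ in length (5546 and 10371 bases). The ratio was not run with the trend with transcript length removed, so a part of that trend in it was not tested. It was 1.45, 1.40 and 1.50 in Day WT, 1.46, 1.47 and 1.61 in Day DKO, 1.37, 1.36 and 1.29 in Night WT, and 1.43, 1.29 and 1.35 in Night DKO. Every Night WT library was below every Day WT library, and every Night DKO library below every Day DKO library. How often ratios of other gene pairs separate in this way was not tested. The night minus day difference of the log2 ratio was -0.14 averaged over genotypes (-0.11 in WT and -0.16 in DKO), with p = 0.005 in a 2-sided exact permutation test, the smallest p its 400 arrangements can give, and 0.015 adjusted over the 6 ratio tests. DKO and WT differed by 0.04 (permutation p = 0.35, adjusted 0.42).

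Gria3, which is X-linked and encodes GluA3, and Gria4, which is typical of interneurons, were less abundant. Gria3 stood at 15.1, 15.3 and 16.9 FPKM in Day WT, 16.2, 16.6 and 18.4 in Day DKO, 16.0, 18.2 and 16.0 in Night WT, and 16.5, 17.0 and 17.1 in Night DKO. Its averaged genotype difference was 0.06 (SE 0.0478, adjusted p = 0.592), and Night WT replicate 1, the library without Y-linked RNA, lay within the range of the others. Gria4 stood at 6.40, 6.17 and 5.70 in Day WT, 6.77, 6.23 and 5.46 in Day DKO, 6.22, 6.59 and 6.18 in Night WT, and 6.26, 7.34 and 6.27 in Night DKO, with an averaged night minus day difference of 0.07 (SE 0.0549, adjusted p = 0.432). In level, Gria1, Gria2, Gria3 and Gria4 followed in that order with no overlap of their ranges over the 12 libraries.

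NMDA receptor genes were not called either. Grin1 encodes GluN1, the subunit that every NMDA receptor needs, and stood at 34.3, 36.3 and 38.5 FPKM in Day WT, 36.2, 37.6 and 41.4 in Day DKO, 36.6, 41.2 and 37.7 in Night WT, and 40.4, 39.4 and 36.5 in Night DKO. Grin2a and Grin2b encode GluN2A and GluN2B, between which forebrain receptors shift during development. Grin2a stood at 11.5, 10.7 and 12.5 in Day WT, 12.2, 12.3 and 14.9 in Day DKO, 11.5, 12.7 and 11.1 in Night WT, and 11.1, 10.8 and 11.3 in Night DKO. Grin2b stood at 28.6, 28.2 and 33.1 in Day WT, 32.4, 29.5 and 35.5 in Day DKO, 28.8, 33.0 and 27.5 in Night WT, and 25.6, 28.7 and 26.1 in Night DKO. For both genes the 3 Night DKO libraries lay below the 3 Day DKO libraries, while the WT groups overlapped.

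Within DKO the night minus day difference was -0.23 for Grin2a (SE 0.0798, adjusted p = 0.218) and -0.27 for Grin2b (SE 0.0881, adjusted p = 0.199). The interaction, which tests whether the night minus day difference was unequal between genotypes, was -0.26 for Grin2a (SE 0.113, unadjusted p = 0.0404 in limma, adjusted p = 0.563) and -0.26 for Grin2b. Neither passed. The Grin2a to Grin2b ratio was 0.385 ± 0.014 in Day WT, 0.405 ± 0.0241 in Day DKO, 0.396 ± 0.00994 in Night WT and 0.414 ± 0.0328 in Night DKO (SD, n = 3), with exact permutation p-values of 0.165 for genotype (adjusted 0.247) and 0.425 for the hour.

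**Figure D3:**
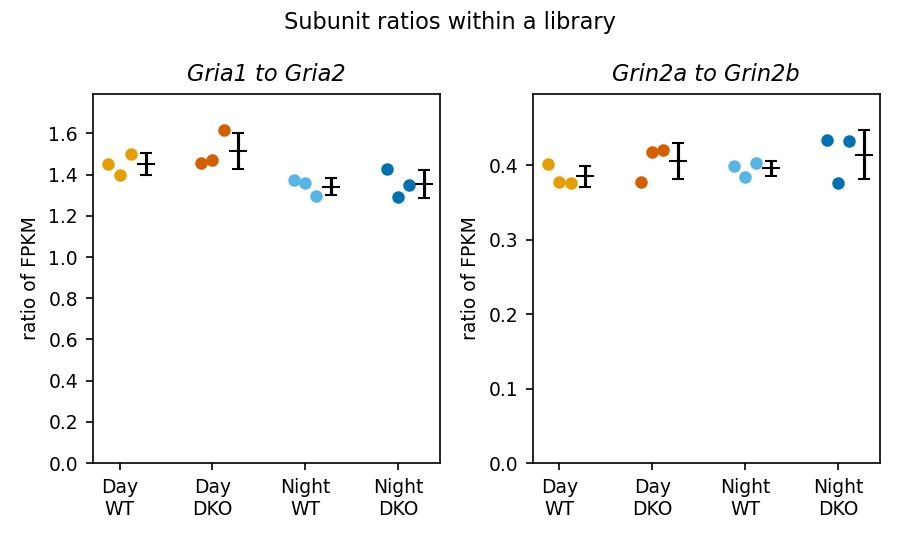
Ratio of 2 subunit genes of the same receptor class within each library, with the mean and SD (n = 3) of each group, on axes that start at 0. Gria1 to Gria2 is lower at night in both genotypes, and Grin2a to Grin2b shows no separation.

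Grin2c encodes GluN2C, best known from cerebellum and found in hippocampus mainly in astrocytes and interneurons. It stood at 2.95, 2.78 and 2.64 FPKM in Day WT, 3.30, 3.62 and 3.07 in Day DKO, 2.48, 2.69 and 2.74 in Night WT, and 2.95, 2.34 and 2.95 in Night DKO. Day DKO lay above each of the other 3 groups. The DKO minus WT difference was 0.19 by day (SE 0.0771, adjusted p = 0.240) and 0.12 averaged over hours (adjusted p = 0.319), and night minus day was -0.21 in DKO (adjusted p = 0.233) and -0.14 averaged over genotypes (adjusted p = 0.135). The summed FPKM of 9 astrocyte markers was 475.9 to 536.6 in Day DKO and 414.6 to 436.1 in Day WT. At night it was 454.7 to 542.6 in DKO and 426.9 to 474.8 in WT. The part of astrocytes in the Grin2c values was not tested. Grin3a (3.10 to 4.19) and Grin2d (0.448 to 0.700), which encode GluN3A and the interneuron subunit GluN2D, completed the tested NMDA genes. The ranges of Grin1 and Grin2b overlapped, as did those of Grin3a and Grin2c, and the other neighbours in level did not overlap.

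Over the 6 tested NMDA genes, 4 had a negative night minus day difference in DKO, with a median of -0.15 (-0.17 with median-of-ratios scaling), beside 0.02 for all genes. Over 22 tested glutamate receptor genes 16 were negative, with a median of -0.05. Of all genes 58.72% were positive in that comparison (50.84% with median-of-ratios scaling). The 14 markers of hippocampal subfields also had a negative median in that comparison (-0.23, none called). How much the cells or tissue sampled differed was not tested, and in bulk RNA fewer cells of a type and less RNA per cell cannot be told apart.

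Kainate receptor genes had a lower summed level than AMPA, NMDA or GABA-B genes, and none was called. Grik5 encodes KA2 (GluK5), a high-affinity subunit that needs a partner, and stood at 11.1, 11.2 and 12.6 FPKM in Day WT, 12.7, 12.7 and 13.0 in Day DKO, 10.3, 13.2 and 11.4 in Night WT, and 11.8 to 13.6 in Night DKO. Day DKO lay just above Day WT, and the night groups overlapped. Its averaged genotype difference was 0.11 (SE 0.0578, adjusted p = 0.349). Grik4 encodes KA1 (GluK4), concentrated in CA3 and dentate gyrus, and stood at 2.95, 3.55 and 3.86 in Day WT, 3.93, 3.84 and 4.77 in Day DKO, 3.21, 3.46 and 3.24 in Night WT, and 3.47, 3.39 and 3.02 in Night DKO. Every Night DKO library was below every Day DKO library.

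For Grik4 the night minus day difference was -0.27 in DKO (SE 0.0873, adjusted p = 0.195) and -0.16 averaged over genotypes (SE 0.0617, adjusted p = 0.131), and DKO minus WT by day was 0.22 (SE 0.0873, adjusted p = 0.235). The remaining kainate genes were Grik2 (4.35 to 5.17 FPKM), Grik3 (3.51 to 5.23) and the interneuron-typical Grik1 (1.10 to 1.45). Grik2, Grik3 and Grik4 overlapped in level, while Grik5 was above and Grik1 below all of them.

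Delta receptors bind cerebellins at synapses and are not opened by glutamate. Grid1 (GluD1) stood at 5.23, 5.08 and 5.80 FPKM in Day WT, 5.61, 5.86 and 5.43 in Day DKO, 4.55, 4.99 and 5.05 in Night WT, and 5.48, 5.22 and 5.58 in Night DKO. Its 3 Night DKO libraries lay above the 3 Night WT libraries (DKO minus WT 0.13, SE 0.0611, adjusted p = 0.543), and its averaged night minus day difference was -0.08 (adjusted p = 0.247).

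Among the metabotropic glutamate receptors, Grm5, the abundant phospholipase C-coupled receptor of principal cells and astrocytes, stood at 33.0, 32.4 and 36.5 FPKM in Day WT, 35.4, 34.3 and 35.8 in Day DKO, 35.3, 36.6 and 33.6 in Night WT, and 34.7, 32.2 and 32.9 in Night DKO. Grm7, the presynaptic receptor of release sites, stood at 6.91, 6.48 and 7.01 in Day WT, 7.78, 7.51 and 7.68 in Day DKO, 6.71, 6.48 and 6.23 in Night WT, and 6.51, 7.14 and 7.47 in Night DKO. All 4 groups overlapped one another for Grm5. Grm7 lay higher in Day DKO than in Day WT without overlap, while the night groups overlapped through Night DKO replicate 1. Its DKO minus WT difference was 0.15 by day (SE 0.0582, adjusted p = 0.215) and 0.13 averaged over hours (SE 0.0411, adjusted p = 0.139).

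Grm2, the presynaptic autoreceptor of mossy fibres and perforant path, had an averaged night minus day difference of -0.22 (SE 0.0641, adjusted p = 0.0602), which passed with median-of-ratios scaling (-0.27, adjusted p = 0.0387) and without Day WT replicate 3 (adjusted p = 0.0470). It stood at 11.8, 13.3 and 10.8 FPKM in Day WT, 13.1, 13.2 and 13.8 in Day DKO, 9.35, 10.7 and 11.8 in Night WT, and 11.5, 11.4 and 9.67 in Night DKO. The DKO libraries separated by hour and the WT libraries overlapped. Grm3 (11.4 to 15.2), the mGlu3 receptor abundant in astrocytes, and the low Grm8 (0.915 to 1.70) and Grm4 (0.914 to 1.42) were not called. The ranges of Grm3 and Grm2 and of Grm8 and Grm4 overlapped in level.

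Gabra2, the GABA-A alpha2 subunit, had the largest time difference of the 33 genes averaged over genotypes and in DKO, while in WT that of Gabra5 was larger. Its receptors sit on axon initial segments and at synapses of cholecystokinin basket cells. The gene lies on chromosome 5, from 70958392 to 71095849 on the minus strand of GRCm38.p6. It stood at 6.86, 8.05 and 8.17 FPKM in Day WT, 10.1, 8.08 and 9.39 in Day DKO, 6.18, 5.88 and 6.04 in Night WT, and 6.13, 6.64 and 6.58 in Night DKO. All 6 night libraries were below all 6 day libraries. Of the 33 genes Gabra2 was the only 1 lower at night without overlap in both genotypes, beside 0.859% of all genes. Shares without overlap, here and below, were not run with median-of-ratios scaling, on which the direction of calls among all genes depended.

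The averaged night minus day difference of Gabra2 was -0.37 (SE 0.0558, limma adjusted p = 0.00497). It was -0.45 in DKO (SE 0.0789, adjusted p = 0.0342) and -0.30 in WT (SE 0.0789, adjusted p = 0.0689), and the interaction of -0.14 did not pass (unadjusted p = 0.217, adjusted p = 0.703), so the night minus day difference is not shown to depend on genotype. The averaged call held in all 18 alternatives run, with differences from -0.43 to -0.34 and adjusted p up to 0.0171. The call in DKO alone was lost when any of Day DKO replicate 1 or 3, a Night DKO library or a Night WT library was left out, with adjusted p up to 0.0984. DKO exceeded WT by 0.23 by day (adjusted p = 0.174) and by 0.15 averaged over hours (adjusted p = 0.187), neither called. Averaged over genotypes, the markers called lower at night, as Gabra2 was, were 1 of 14 for hippocampal subfields (Lct, list median -0.08) and 1 of 7 for excitatory neurons (Neurod2, list median -0.01). Those called higher were 2 of 9 oligodendrocyte and 2 of 9 astrocyte markers. Of all 12689 genes, 659 were called higher and 111 lower in that comparison (209 and 285 with median-of-ratios scaling). The oligodendrocyte sums were 404.8 to 444 FPKM in Day WT, 456.1 to 536.5 in Night WT, 329.7 to 409.3 in Day DKO and 364.9 to 467.5 in Night DKO. The part of these cells in the Gabra2 difference was not tested. Choroid plexus sums were 80.1 to 1890 FPKM in Day DKO and 2018 to 3181 in Night DKO, with none of 16 genes called. With choroid plexus RNA as a covariate the averaged difference of Gabra2 was -0.40 (adjusted p = 0.0132), while the call in DKO alone was lost (-0.50, adjusted p = 0.103). That call was also lost with no filter, with only the groups compared and with the replicate block.

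**Figure D4:**
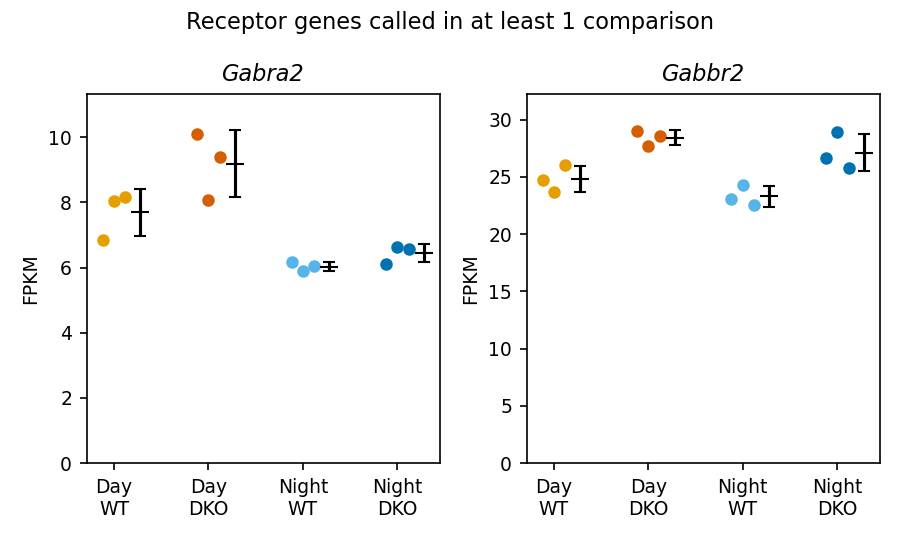
FPKM of the 2 called receptor genes in each library, with the mean and SD (n = 3) of each group beside its points, on axes that start at 0. All 6 night libraries of Gabra2 lie below all 6 day libraries, and for Gabbr2 the DKO libraries (25.8 to 29.0) lie above the WT libraries of the same hour.

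The windows of 250 bases upstream of the RefSeq start of Gabra2 and Gabbr2 are shown because these genes gave the called time difference that held in every alternative and the called genotype difference. Both are from RefSeq on GRCm38.p6, minus strand, written 5′ to 3′: chr5:71095850-71096099 for Gabra2 and chr4:46991715-46991964 for Gabbr2. Capitals mark matches on either strand to a GC box, spelled GGGCGG, or to the box whose letters are CCAAT.
Gabra2: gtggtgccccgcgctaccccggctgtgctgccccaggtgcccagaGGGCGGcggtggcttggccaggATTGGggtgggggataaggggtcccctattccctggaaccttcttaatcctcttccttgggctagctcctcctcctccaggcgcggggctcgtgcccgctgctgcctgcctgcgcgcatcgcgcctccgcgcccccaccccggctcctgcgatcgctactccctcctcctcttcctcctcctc
Gabbr2: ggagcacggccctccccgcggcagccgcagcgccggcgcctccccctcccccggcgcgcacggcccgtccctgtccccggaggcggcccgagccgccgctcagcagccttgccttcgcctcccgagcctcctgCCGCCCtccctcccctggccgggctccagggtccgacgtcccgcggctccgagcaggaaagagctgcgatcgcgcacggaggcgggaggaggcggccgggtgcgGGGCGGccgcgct
The G and C content was 70.0% for Gabra2 and 80.8% for Gabbr2. Gabra2 had 1 GC box and 1 CCAAT box, and Gabbr2 had 2 GC boxes. Promoter entries were matched for 32 of the 42 subunit genes, with 39 promoters in all, of which 18 held a GC box and 16 a CCAAT box in the 250 bases searched, beside 32.7% and 33.8% of all 32851 promoters. Neither of the printed windows held the circadian E-box CACGTG (6.02% of all promoters, and Grin1 among the receptors), the D-box TTANGTAA (2.06%, Gabrg1 and Gabrr2) or the AGGTCA core of REV-ERB and ROR sites (14.0%, Gabrr3 and Grin2c). These are matches of letters in the window searched. They show no binding.

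Many GABA-A genes lie in clusters. Gabra2 shares its cluster on chromosome 5 (70751047 to 72149572, 1.4 Mb) with Gabrg1, Gabra4 and Gabrb1, whose averaged night minus day differences were 0.06 (adjusted p = 0.478), 0.09 (adjusted p = 0.226) and -0.04 (adjusted p = 0.675). None of these 3 neighbours was called. The annotated ends of Gabra4 and Gabrb1 overlap, and without a stated counting strand their reads may be shared. Gabre, Gabra3 and Gabrq lie on the X chromosome (72256926 to 72842607).

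Gabrd encodes the delta subunit of extrasynaptic, neurosteroid-sensitive receptors of dentate granule cells. It stood at 5.92, 7.72 and 5.71 FPKM in Day WT, 5.34, 6.10 and 5.71 in Day DKO, 4.97, 6.49 and 5.10 in Night WT, and 6.98, 6.39 and 6.82 in Night DKO. Night DKO lay above Day DKO, while replicate 2 was the highest library of each WT group. The interaction was the largest among the 33 genes, 0.39 (SE 0.148, unadjusted p = 0.0196, adjusted p = 0.561), and DKO minus WT at night was 0.25 (unadjusted p = 0.0312, adjusted p = 0.491).

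No other of the tested GABA-A genes was called. Gabra5, the alpha subunit of tonic inhibition in CA1 pyramidal cells, stood at 20.7, 21.8 and 24.3 FPKM in Day WT, 22.0, 25.7 and 29.2 in Day DKO, 27.0, 29.1 and 27.8 in Night WT, and 27.7, 25.0 and 24.5 in Night DKO. The WT libraries did not overlap between hours, and the DKO libraries did. Its night minus day difference in WT was 0.32 (SE 0.0913, adjusted p = 0.0822), and its interaction was -0.31 (unadjusted p = 0.0334, adjusted p = 0.563). Gabrb2, a beta subunit, stood at 21.1 to 24.6 FPKM and overlapped Gabra5 in level, while Gabra4 lay below both. Gabrg3 and Gabra4 are named after their values were seen.

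Gabrg3 stood at 1.53 to 1.76 FPKM by day and 1.80 to 2.00 at night in WT, and at 1.50 to 1.69 by day and 1.76 to 2.02 at night in DKO. It was the only 1 of 33 genes higher at night without overlap in both genotypes, beside 4.96% of all genes, with an averaged difference of 0.13 (adjusted p = 0.0895). Gabra4, a partner of the delta subunit, stood at 13.5 to 14.4 FPKM in Day WT, 14.4 to 16.9 in Day DKO, 15.2 to 16.0 in Night WT and 16.1 to 17.1 in Night DKO. It and Gabbr2 were the 2 of 33 genes higher in DKO without overlap at both hours, beside 1.57% of all genes. The averaged genotype difference of Gabra4 was 0.12 (SE 0.0449, adjusted p = 0.205), and its day ranges nearly met at 14.4 FPKM. None of the 33 was lower in DKO without overlap at both hours (background 1.25%). None separated in opposite directions at the 2 hours (0.654%) or, by hour, in the 2 genotypes (0.575%).

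Over 9 tested GABA-A genes, 7 had a positive averaged night minus day difference (5 with median-of-ratios scaling), with a median of 0.06 (0.03), beside 0.05 (0.00) for all genes. Over 22 tested glutamate receptor genes, 8 were positive (3 with that scaling), with a median of -0.04 (-0.08). With the trend of each library with transcript length removed, the medians were 0.03 for GABA-A and -0.07 for glutamate receptors. Of all genes 69.35% were positive, 51.9% with median-of-ratios scaling. By genotype, 23 of 33 receptor genes had a positive difference by day (21 with median-of-ratios scaling), with a median of 0.08 (0.03), beside 62.85% (47.84%) of all genes. At night 19 of 33 were positive (22 with that scaling), with a median of 0.01 (0.02), beside 46.15% (49.68%) of all genes.

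Of the GABA-B genes, Gabbr2 was higher in DKO and Gabbr1 was not called. Gabbr2 lies on chromosome 4 (46662318 to 46991714) and stood at 24.8, 23.7 and 26.0 FPKM in Day WT, 29.0, 27.7 and 28.5 in Day DKO, 23.1, 24.3 and 22.5 in Night WT, and 26.7, 28.9 and 25.8 in Night DKO. At each hour all 3 DKO libraries lay above all 3 WT libraries. The averaged DKO minus WT difference was 0.20 (SE 0.0411, limma adjusted p = 0.0300), with 0.19 by day (adjusted p = 0.137) and 0.21 at night (adjusted p = 0.309). The averaged night minus day difference was -0.08 (adjusted p = 0.251).

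The Gabbr2 call was narrow. It was lost without Day WT replicate 1 or 2, any Day DKO library, Night DKO replicate 2, or Night WT replicate 1 or 3, with adjusted p up to 0.0854 and differences of 0.18 to 0.22 over all 12 libraries left out in turn, and with choroid plexus RNA as a covariate (0.18, adjusted p = 0.106). Among the libraries whose removal lost the call, Night WT replicate 1 had almost no Y-linked RNA. The part of sex in the Gabbr2 difference was not tested. Microglial markers moved with genotype (6 of 10 called higher in DKO, median 0.65). Their summed FPKM was 121.5 to 135.9 in Day WT and 201.9 to 226.3 in Day DKO. At night it was 135.0 to 150.9 in WT and 138.5 to 283.4 in DKO, where replicate 1 was lowest. Of 9 astrocyte markers 1 was called higher, as was 1 of 7 excitatory neuron markers (Neurod2), and 1 of 9 oligodendrocyte markers was called lower (Opalin). Of all genes 1% were called higher and 0.875% lower in that comparison. The part of these cell types in the Gabbr2 difference was not tested.

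Gabbr1, the partner of Gabbr2, had the highest mean of the 42 subunits and stood at 79.2, 84.7 and 80.5 FPKM in Day WT, 86.3, 97.1 and 95.3 in Day DKO, 85.5, 93.6 and 84.5 in Night WT, and 90.9, 89.4 and 91.1 in Night DKO. Day DKO lay above Day WT, and the night groups overlapped through Night WT replicate 2. DKO minus WT was 0.19 by day (SE 0.0623, adjusted p = 0.162), 0.04 at night (adjusted p = 0.890) and 0.11 averaged (adjusted p = 0.213).

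The receptors' partners were followed with 56 genes in 6 lists, all tested: AMPA auxiliary subunits (14), kainate auxiliary subunits (2), glutamate receptor anchoring (13), GABA receptor anchoring and auxiliary proteins (10), glutamate synthesis and transport (10), and GABA synthesis and transport (7). By day 1 of 56 was called higher in DKO, beside 0.796% of all genes. This was Homer1, which ties mGlu5 to the postsynaptic density and has a short activity-induced form. It stood at 10.3, 10.4 and 10.8 FPKM in Day WT, 14.7, 12.9 and 14.4 in Day DKO, 10.0, 10.7 and 11.7 in Night WT, and 10.6, 10.6 and 11.1 in Night DKO. Day DKO stood alone: DKO minus WT was 0.38 by day (SE 0.0641, adjusted p = 0.0209), and night minus day in DKO was -0.35 (SE 0.0641, adjusted p = 0.0436).

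The interaction of Homer1 (-0.38, unadjusted p = 0.00101) had an adjusted p of 0.460 over all genes. Its day call was lost without Day WT replicate 1 or 2 or Day DKO replicate 3 (adjusted p up to 0.0760), and also with only the groups compared and with choroid plexus RNA as a covariate (up to 0.0801). Its call in DKO was lost without any library but Day WT replicate 3, Day DKO replicate 2 and Night WT replicate 3 (up to 0.147), and also with no filter, with only the groups compared and with that covariate. No value here separates the forms of Homer1.

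All 3 Shank genes, postsynaptic scaffolds that link Homer and the NMDA receptor complex, were called lower at night averaged over genotypes, and no other partner was called in that comparison (3 of 56, beside 0.875% of all genes called lower). The difference was -0.30 for Shank1 (SE 0.0769, adjusted p = 0.0409), -0.17 for Shank2 (SE 0.0456, adjusted p = 0.0460) and -0.23 for Shank3 (SE 0.056, adjusted p = 0.0325). Shank3 stood at 15.4 to 17.1 FPKM in Day WT, 15.8 to 16.1 in Day DKO, 13.0 to 13.8 in Night WT and 12.1 to 15.8 in Night DKO, so night libraries were lower except Night DKO replicate 1. Each Shank call was lost when most single libraries were left out, with adjusted p up to 0.101. With no filter on low values and with choroid plexus RNA as a covariate all 3 calls were lost too, as was that of Shank1 with the replicate block (adjusted p up to 0.1195).

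Slc6a13, the GABA transporter GAT2 of meninges and vessels, was the only partner called between genotypes averaged over hours (1 of 56 lower, beside 0.875% of all genes). It stood at 2.83, 4.91 and 4.38 FPKM in Day WT, 2.45, 2.54 and 1.76 in Day DKO, 3.54, 4.07 and 2.38 in Night WT, and 1.77, 1.75 and 1.46 in Night DKO, lower in DKO without overlap at both hours. It fell by 0.65 (SE 0.119, adjusted p = 0.0204), and the call was lost without Night DKO replicate 3 or Night WT replicate 1 (adjusted p up to 0.0547) and with no filter on low values (0.0632). Night WT replicate 1 is the library with almost no Y-linked RNA, and the part of sex in the Slc6a13 difference was not tested. No partner was called between genotypes at night, between hours in WT or in the interaction. Partner medians were between -0.06 and 0.08 in the 7 comparisons.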

How the data were processed

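RNA of 12 libraries in 4 groups of 3 was sequenced. Per the labels' protocols, a stranded TruSeq kit for total RNA was used with depletion of ribosomal RNA. Build GRCm38.p6 is named in the submitters' processing notes. Aligner, quantifier, annotation and counting strand: not given in the sources used here. Tables deposited by the authors hold FPKM, a unit read from the values: across 1741 genes, which are not independent replicates, the lowest value was smaller for longer transcripts (Spearman's rho -0.545). The tables hold no counts, so the count test planned first was replaced by its planned substitute. Relative depth, from the steps between low values, was 0.906 to 1.058 (Day WT replicate 1 set to 1). Total reads are unknown.

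From these values log2(FPKM + 1) was computed, and 12689 genes (3 or more libraries with an FPKM of 0.5 or higher) were fitted with limma (version 3.58.1 in R 4.3.3), with 1 mean per group, all 12 libraries and an intensity trend. Every difference printed for a gene is on that scale, which shrinks those of low genes. The 7 comparisons were 2-sided, with Benjamini-Hochberg adjustment over all genes tested and calls at an adjusted p under 0.05. Groups did not overlap where every library of one lay above every library of the other, in FPKM without further scaling. The log2 ratios of FPKM used a 2-sided exact permutation test stratified by the other factor, adjusted over the 6 tests run, of which 4 are given. The limma fit and the permutation test were tested on simulated data.

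The members and lists were chosen with earlier results of these data known. Some of the genes that the rule took, and results that need them, are not reported here, and counts, medians and the rule for described genes cover the genes reported. Described with the value of every library were called receptor genes, the gene of highest mean and of smallest averaged genotype and time p in each class, the genes of the ratios, and Gabrd and Grik4. Described among partners were called genes. Alternatives were a pseudocount of 0.1, no filter, median-of-ratios scaling, removal of the trend with transcript length, only the groups compared, the replicate number as a block, a choroid plexus covariate, ratios of FPKM + 1, and each library left out in turn.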

Additional observations from a re-analysis of the deposited data

How the results depend on the processing

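Night against day in WT called 0 receptor genes, and 0 to 1 over the libraries left out in turn (Gabra2, without Day DKO replicate 2). Night against day in DKO went from 1 to 0 with no filter, with only the groups compared and with the choroid plexus covariate, and between 0 and 1 over the libraries left out. DKO against WT averaged over hours went from 1 to 0 with no filter and with the choroid plexus covariate, and between 0 and 1 over the libraries left out. Night against day averaged over genotypes went from 1 to 2 with median-of-ratios scaling (Grm2 added) and between 1 and 2 over the libraries left out (Grm2 added without Day WT replicate 3). The other 3 counts stayed at 0 in every alternative run. The night minus day difference of the Gria1 to Gria2 ratio ranged from -0.16 to -0.11 over the libraries left out and held its call. The averaged night minus day difference of Gria2 reversed to -0.011 with median-of-ratios scaling, and no other difference of a named gene or ratio did so. No cause was tested. The fit to only the groups compared was not run for the interaction and averaged comparisons, which need all groups, and 386 tested genes had no length for the length trend.

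With the replicate block, night against day in DKO called 0 receptor genes in place of 1 (Gabra2, adjusted p = 0.0518), Shank1 averaged over genotypes had an adjusted p of 0.0535, and the other receptor counts did not change. The labels do not say that libraries with the same replicate number are paired. Of 18 pairs with the same number 7 had deviations correlated above 0.1 (r of -0.116 to 0.247, against -0.204 to 0.22 in pairs with other numbers). Of the 12 libraries 9 correlated best with their own number, a hint of pairing that comes from the data and not the design. Depth is unknown beyond relative steps, so no counting interval is given, and 3 libraries a group limit what can be called.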
